A study of Arabidopsis thaliana with 12 samples.

Results

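Calmodulins and calmodulin-like proteins bind Ca2+ through EF-hands, and 39 Arabidopsis thaliana genes for them were followed here by their locus identifiers. Of these, 35 were among the 23106 genes of the deposited tables, and the expression of AT1G12310, AT1G18530, AT1G32250 and AT2G15680 was not analysed here. The 35 genes comprised the 7 calmodulins CAM1 to CAM7 and 28 calmodulin-like (CML) genes. Poly-A RNA was sequenced from roots of seedlings that descend from the T-DNA insertion line cork1-2 crossed to a wild type carrying the Ca2+ reporter aequorin. The seedlings were homozygous for the insertion in the receptor kinase gene CORK1 (HO) or segregated wild type (SWT), so both are segregants of 1 line, and the T-DNA lies in an exon near the 3′ end of the gene. HO roots received 10 µM cellotriose (CT), a short oligomer derived from cellulose, or water for 1 h, and so did SWT roots, which gave 4 groups of 3 libraries with 16 seedlings in each library. The comparisons ask which genes respond to CT and whether the response needs CORK1.

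A calmodulin changes its shape when Ca2+ fills its EF-hand loops and then binds other proteins, so it passes a rise of cytosolic Ca2+ on to enzymes, channels and transcription factors. Calmodulin-like proteins share the EF-hand but differ more in sequence. Several of their genes, such as TCH2 and TCH3, are known for a quick rise in their transcripts after touch and other stimuli.

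The deposited tables hold, for each gene, 1 mean normalized read count for the 12 libraries together, and log2 fold changes with their standard errors (SE) and p-values for 3 comparisons. They hold no values per library, so the depth per library is unknown and each level below is a group mean recovered from the mean count and the fold changes. CORK1 itself averaged 302 normalized counts in HO with CT and 255 in HO in water, against 1999 in SWT with CT and 1413 in SWT in water, and HO had 18.1% of the SWT level in water (adjusted p = 2.93e-52, DESeq2 Wald test of the authors). All 7 root markers checked were found, with a summed level of 26312 normalized counts per kb of exon in HO with CT, 22800 in HO in water, 21195 in SWT with CT and 22261 in SWT in water. Of these root markers, 3 were lower with CT than in water in SWT and 5 in HO. In HO the root marker NRT2:1 had 10007 per kb with CT and 6399 in water. The 6 leaf markers checked were found too, with summed levels of 5111 and 5319 per kb in HO with CT and in water, and of 3055 and 4822 per kb in SWT with CT and in water. Of these leaf markers, 5 were lower with CT than in water in SWT and 4 in HO, and their part in the results below was not tested.

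The coding sequences are shown first, because several members encode one and the same protein and are told apart only by their RNA. In TAIR10.1, CAM2 (chromosome 2), CAM3 (chromosome 3) and CAM5 (chromosome 2) encode identical proteins, although 39 of 450 coding bases differ between CAM2 and CAM3 and 65 between CAM2 and CAM5. CAM1 and CAM4 likewise encode 1 protein and differ at 47 coding bases. CAM6 differs from CAM2 at 2 residues and CAM7 at 1 residue. The stretches below, from the RefSeq annotation with introns removed, code for the first 12-residue loop that fits the EF-hand pattern used here, with the codons of its first and last residue in capitals. That loop is at residues 21 to 32 in CAM2, CAM3, CAM5 and TCH3, at residues 38 to 49 in CML42 and at residues 94 to 105 in CAM9.
CAM2: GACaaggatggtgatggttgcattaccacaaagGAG
CAM3: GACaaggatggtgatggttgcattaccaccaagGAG
CAM5: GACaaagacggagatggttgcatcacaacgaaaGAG
TCH3: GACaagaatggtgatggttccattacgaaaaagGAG
CML42: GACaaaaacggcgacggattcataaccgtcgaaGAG
CAM9: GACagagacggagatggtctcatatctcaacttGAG
The loops of CAM2 and CAM5 differ at 7 of 36 bases and at 0 residues, whereas that of TCH3 differs from CAM2 at 4 bases and 3 residues. That of CML42 differs from CAM2 at 13 bases and 4 residues, and that of CAM9 at 14 bases and 5 residues. The CAM9 loop, at residues 94 to 105, is not at the place of the CAM2 loop, at residues 21 to 32. CAM9 had 2 matches to the pattern and CAM2 had 4. Whole proteins were aligned to CAM2, and identical residues were taken as a share of the shorter protein. That identity was 73.2% for CAM8, 75.2% for CML11, 61.1% for TCH3, 49.7% for CAM9, 36.9% for CML42, 34.2% for AT3G29000 and 25.3% for AT3G01830. TCH3 has 324 residues and CAM2 has 149, so the value for TCH3 does not describe its whole length. Windows of 75 exon bases that occur more than once in the genome, in the same gene or another, made up 3.7% of those of TCH3, 0.5% of those of CAM7 and 0 of those of each other member.

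The family spanned means of 18.2 to 7108 normalized counts over all libraries, with a median of 447, and 28 of the 35 genes had a mean of at least 50. Per kb of exon, CAM3 was the most abundant member in every group, at 6153 in HO with CT, 6501 in HO in water, 6299 in SWT with CT and 5922 in SWT in water. The length used covers the exons of every annotated transcript of a gene. It was 1872 bases for CAM4, 2572 for CAM7 and 2548 for TCH3, against 1138 for CAM1 and 1143 for CAM3. CAM1, CAM3, CAM4 and CAM7 have 450 coding bases each, so levels per kb and ranks depend on the annotated lengths. CAM1 came second in SWT in water at 5551 per kb, followed by CAM4 at 2963, CAM6 at 2662 and CAM5 at 2571. The lowest in that group were AT3G01830 at 13.6, AT2G41090 at 19.2 and AT3G47480 at 26.2 per kb. With CT, several calmodulin-like genes held higher ranks in SWT. Among them CML42 had rank 3 at 3288 per kb (rank 12 in SWT in water), CAM9 rank 4 at 3106 (rank 10 in SWT in water) and TCH3 rank 11 at 1582 (rank 22 in SWT in water).

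**Figure D1:**
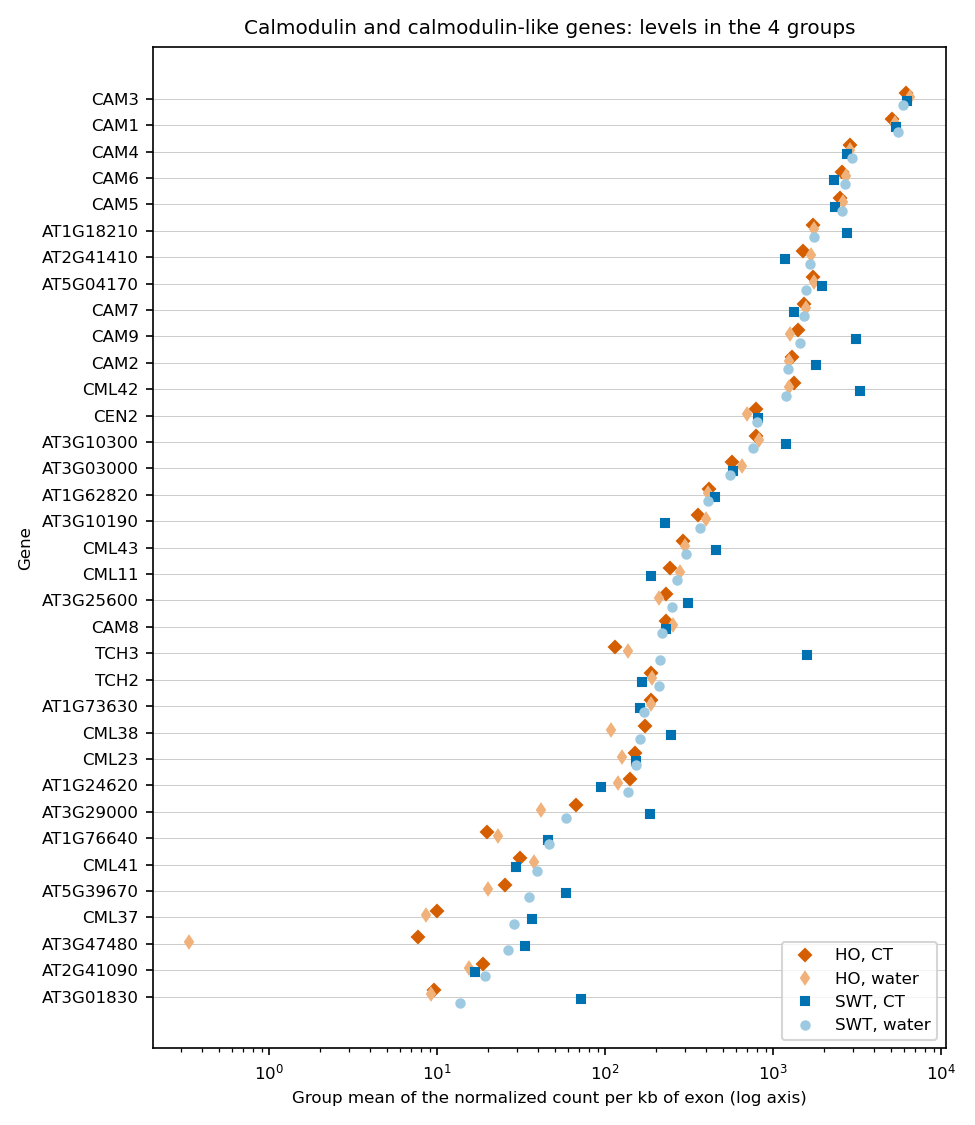
Group means of the 35 genes per kb of exon on a log axis, with 1 row per gene ordered by the level in SWT in water and 1 marker per group (HO with CT, HO in water, SWT with CT, SWT in water). For TCH3, CML42 and CAM9 the SWT marker with CT lies to the right of the other 3, at 1582, 3288 and 3106 per kb, and AT3G47480 in HO in water lies far to the left at 0.334 per kb.

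TCH3, AT3G01830, AT3G29000 and CML42, 4 of the 35 genes, rose with CT in SWT roots. A gene was called here at an adjusted p below 0.05 (Benjamini-Hochberg adjustment of the authors over the genes they gave an adjusted p, Wald test) and a change of at least 2.51-fold up or down, the fold criterion, which is the study's own cutoff. The 4 genes are 11.4% of the members, against 2.58% of all 21759 genes tested that were called higher. None was called lower, against 0.248% of all genes. At an unadjusted p below 0.05, 3 of the 35 members were lower, and 1960 of the 23103 genes with a p-value. The median log2 fold change was 0.08 over the members and -0.01 over all genes. In whole roots, more cells that express a gene and more RNA of it per cell cannot be told apart.

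TCH3 (AT2G41100, chromosome 2), a touch-induced gene whose protein has 6 matches to the EF-hand loop pattern, averaged 292 normalized counts in HO with CT and 347 in HO in water, against 4032 in SWT with CT and 541 in SWT in water. Only the SWT mean with CT stood apart from the others. Its log2 fold change with CT was -0.25 (SE 0.52) in HO and 2.90 (SE 0.52, 95% interval 1.88 to 3.92) in SWT, a 7.45-fold rise in SWT with an adjusted p of 1.07e-06. The replicate coefficient of variation that the SE implies was 44.2%, against 10.3% for CML42. TCH3 overlaps AT2G09220 and AT2G41105 on the other strand and the sources used here do not say whether reads were counted by strand, so its count is uncertain in that respect.

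CML42 (AT4G20780, chromosome 4, 11133095 to 11134075, minus strand, 1 exon), known for a part in leaf hair branching and in defence against insects, averaged 1312 normalized counts in HO with CT and 1224 in HO in water, against 3226 in SWT with CT and 1175 in SWT in water. It had the smallest adjusted p of the family for CT in SWT, 2.31e-30, at a log2 fold change of 1.46 (SE 0.12, 95% interval 1.22 to 1.70) and a 2.75-fold rise. The log2 fold change was 0.10 (SE 0.12) in HO. The 3 other group means lay close together and well below SWT with CT.

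AT3G29000, an EF-hand protein gene with 1 exon on chromosome 3 (11005638 to 11006514, plus strand), averaged 58.7 normalized counts in HO with CT and 36.5 in HO in water, against 161 in SWT with CT and 51.6 in SWT in water. With CT the log2 fold change was 0.68 (SE 0.43) in HO, which did not pass the test, and 1.64 (SE 0.42, adjusted p = 0.00158) in SWT. AT3G01830, another EF-hand protein gene on chromosome 3 (296024 to 299263, plus strand), averaged 12.4 normalized counts in HO with CT and 11.9 in HO in water, against 92.9 in SWT with CT and 17.7 in SWT in water. For this gene the log2 fold change was 0.06 (SE 0.67) in HO and 2.39 (SE 0.62, adjusted p = 0.00186) in SWT. AT3G01830 overlaps AT3G01055 and AT3G01840 on the other strand. Both genes rest on low counts, with implied replicate coefficients of variation of 35.6% for AT3G29000 and 52.4% for AT3G01830, and neither kept its call when the Wald statistics were divided by their spread over all genes (adjusted p = 0.128 for AT3G29000 and 0.137 for AT3G01830).

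**Figure D2:**
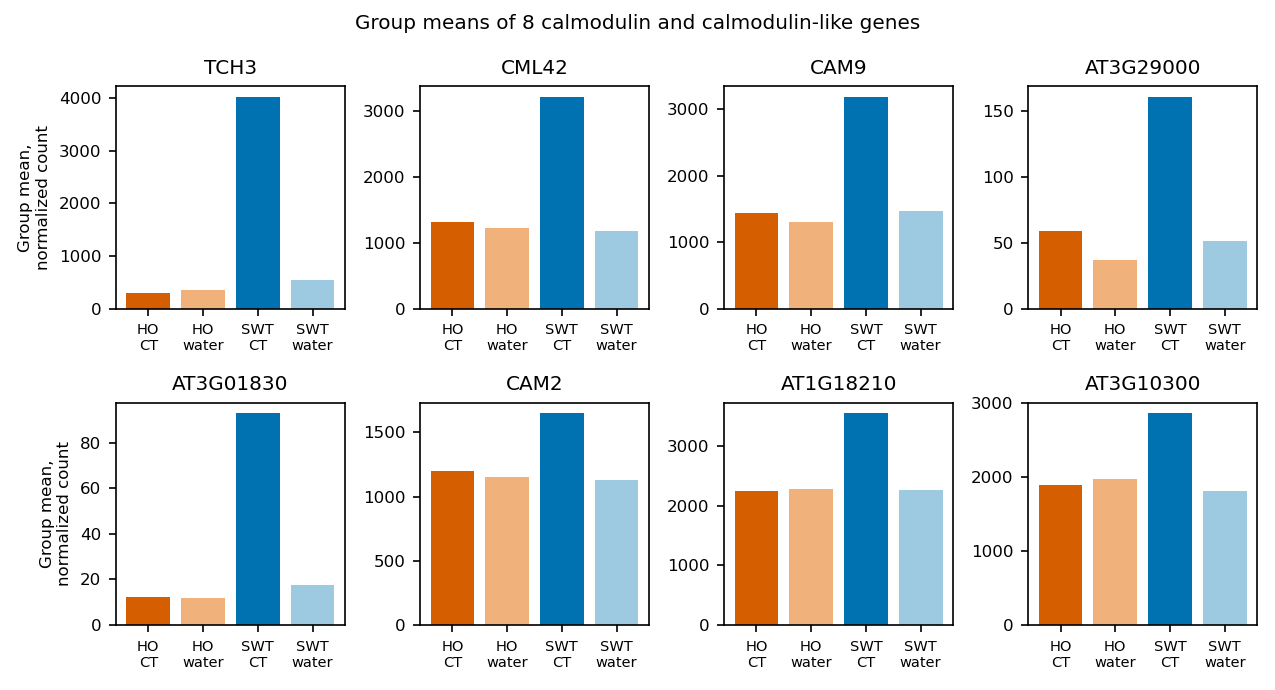
Group means in normalized counts of 8 genes in HO with CT, HO in water, SWT with CT and SWT in water, 1 panel per gene with its own axis from 0. The bars carry no error, since no values per library were available. In each panel the bar for SWT with CT is the tallest, at 4032 for TCH3, 3226 for CML42 and 3190 for CAM9.

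Smaller rises passed the adjusted p without reaching the fold criterion. Without that criterion, 9 members were higher and 2 were lower with CT in SWT, which is 25.7% and 5.71% of the 35, against 8.30% and 3.23% of all genes tested. CAM9 (AT3G51920, chromosome 3, 19267951 to 19269658, minus strand), a divergent calmodulin, averaged 1439 normalized counts in HO with CT and 1298 in HO in water, against 3190 in SWT with CT and 1472 in SWT in water. Its log2 fold change in SWT was 1.12 (SE 0.17, adjusted p = 3.46e-09), a 2.17-fold rise that is below the criterion of 2.51-fold, and 0.15 (SE 0.17) in HO. AT1G18210, an EF-hand protein gene that overlaps AT1G18200 on the same strand, averaged 2252 normalized counts in HO with CT and 2277 in HO in water, against 3557 in SWT with CT and 2262 in SWT in water. It rose by 0.65 on the log2 scale in SWT (SE 0.12, adjusted p = 1.55e-06) and had a log2 fold change of -0.02 (SE 0.12) in HO. AT3G10300 averaged 1884 normalized counts in HO with CT and 1968 in HO in water, against 2861 in SWT with CT and 1810 in SWT in water. That EF-hand protein gene rose by 0.66 (SE 0.16, adjusted p = 0.000723) in SWT and had a log2 fold change of -0.06 (SE 0.16) in HO. CML43, known in plant immunity, averaged 292 normalized counts in HO with CT and 300 in HO in water, against 459 in SWT with CT and 304 in SWT in water, and rose by 0.60 in SWT (SE 0.20, adjusted p = 0.0347).

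The 2 genes that were lower in SWT by the adjusted p were EF-hand protein genes. AT3G10190 averaged 345 normalized counts in HO with CT and 385 in HO in water, against 220 in SWT with CT and 353 in SWT in water, a log2 fold change in SWT of -0.68 (SE 0.21, adjusted p = 0.0163). AT2G41410 averaged 1931 and 2164 normalized counts in HO with CT and in water, against 1514 and 2143 in SWT with CT and in water, a log2 fold change in SWT of -0.50 (SE 0.17, adjusted p = 0.0365). CML11 had a log2 fold change of -0.52 in SWT with an adjusted p of 0.0501 and was not called. For none of these 3 did the responses of HO and SWT differ by the adjusted p of their difference, which was 0.531, 0.701 and 0.757 for AT3G10190, AT2G41410 and CML11.

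The calmodulins themselves moved little. CAM2 was the exception, with 1195 normalized counts in HO with CT and 1150 in HO in water, against 1649 in SWT with CT and 1132 in SWT in water. Its log2 fold change in SWT was 0.54 (SE 0.19, 95% interval 0.17 to 0.91, adjusted p = 0.0367) and 0.06 (SE 0.19) in HO, but the difference between those responses did not pass (-0.49, SE 0.27, adjusted p = 0.487). CAM3 and CAM5, which encode the same protein as CAM2, had log2 fold changes in SWT of 0.09 (95% interval -0.24 to 0.42) and -0.15 (95% interval -0.40 to 0.11). CAM3 averaged 7033 normalized counts in HO with CT and 7431 in HO in water, against 7200 in SWT with CT and 6769 in SWT in water, and CAM5 averaged 2627 and 2771 in HO with CT and in water, against 2458 and 2720 in SWT. Their log2 fold changes in HO were -0.08 (SE 0.17) for CAM3 and -0.08 (SE 0.13) for CAM5. CAM1 and CAM4, the other pair with a common protein, did not pass the test either. CAM1 averaged 5814 and 6030 normalized counts in HO with CT and in water, against 6086 and 6318 in SWT, with log2 fold changes of -0.05 (SE 0.09) in HO and -0.05 (SE 0.09) in SWT. CAM4 averaged 5385 and 5353 in HO with CT and in water, against 5138 and 5547 in SWT, with 0.01 (SE 0.11) in HO and -0.11 (SE 0.11) in SWT. The 2 genes with a protein of their own gave like values. CAM6 averaged 2087 and 2218 normalized counts in HO with CT and in water, against 1893 and 2178 in SWT, with log2 fold changes of -0.09 (SE 0.13) in HO and -0.20 (SE 0.13) in SWT. CAM7 averaged 3923 and 4027 in HO with CT and in water, against 3440 and 3902 in SWT, with -0.04 (SE 0.09) in HO and -0.18 (SE 0.09) in SWT. The adjusted p in SWT of these 4 genes ranged from 0.228 for CAM7 to 0.793 for CAM1. Over the 7 calmodulins the 95% intervals stayed between -0.45 and 0.91 in SWT and between -0.41 and 0.42 in HO, so a change of the size of the fold criterion lay outside each of them.

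The make-up of the family's transcripts in SWT with CT differed from that in the other groups. Summed per kb, the 35 genes gave 34744 in HO with CT and 35558 in HO in water, against 41762 in SWT with CT and 35256 in SWT in water. CAM1 to CAM7 held 63.3% and 64.1% of that sum in HO with CT and in water, and 53.1% and 63.6% in SWT with CT and in water. Their own summed level was 21995 and 22805 per kb in HO with CT and in water, and 22156 and 22417 in SWT with CT and in water. The share of CML42 was 3.85% and 3.51% in HO with CT and in water and 7.87% and 3.40% in SWT, and that of TCH3 was 0.329% and 0.383% in HO and 3.79% and 0.603% in SWT. No error can be given for these sums without values per library, and they are descriptions. The shares also depend on the annotated exon lengths.

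**Figure D3:**
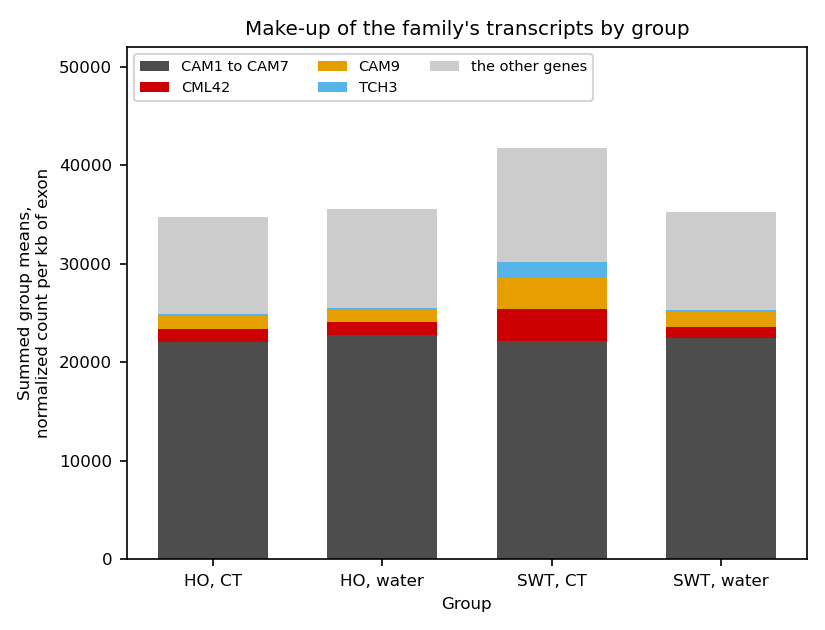
Summed group means of the 35 genes per kb of exon in HO with CT, HO in water, SWT with CT and SWT in water, split into CAM1 to CAM7, CML42, CAM9, TCH3 and the other genes. The dark segment of CAM1 to CAM7 is about as high in each bar, 21995 to 22805, and the bar for SWT with CT is the tallest at 41762.

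In HO roots, 0 of the 35 genes were called for CT against water by the Wald test of the authors, with or without the fold criterion, against 0.00866% of all genes called in either direction. At an unadjusted p below 0.05 there were 2 members, CML38 and AT3G47480, and 428 of all genes. CML38, a gene known to respond to wounding and low oxygen, averaged 172 normalized counts in HO with CT and 107 in HO in water, against 245 in SWT with CT and 160 in SWT in water. Its log2 fold change was 0.68 (SE 0.34) in HO and 0.61 (SE 0.33) in SWT, with adjusted p of 1.000 and 0.269. The median log2 fold change of the members in HO was -0.02, and that of all genes was -0.01. The 95% interval reached less than 2.51-fold to either side of the value for 32 of the 35 genes in HO and for 34 in SWT.

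**Figure D4:**
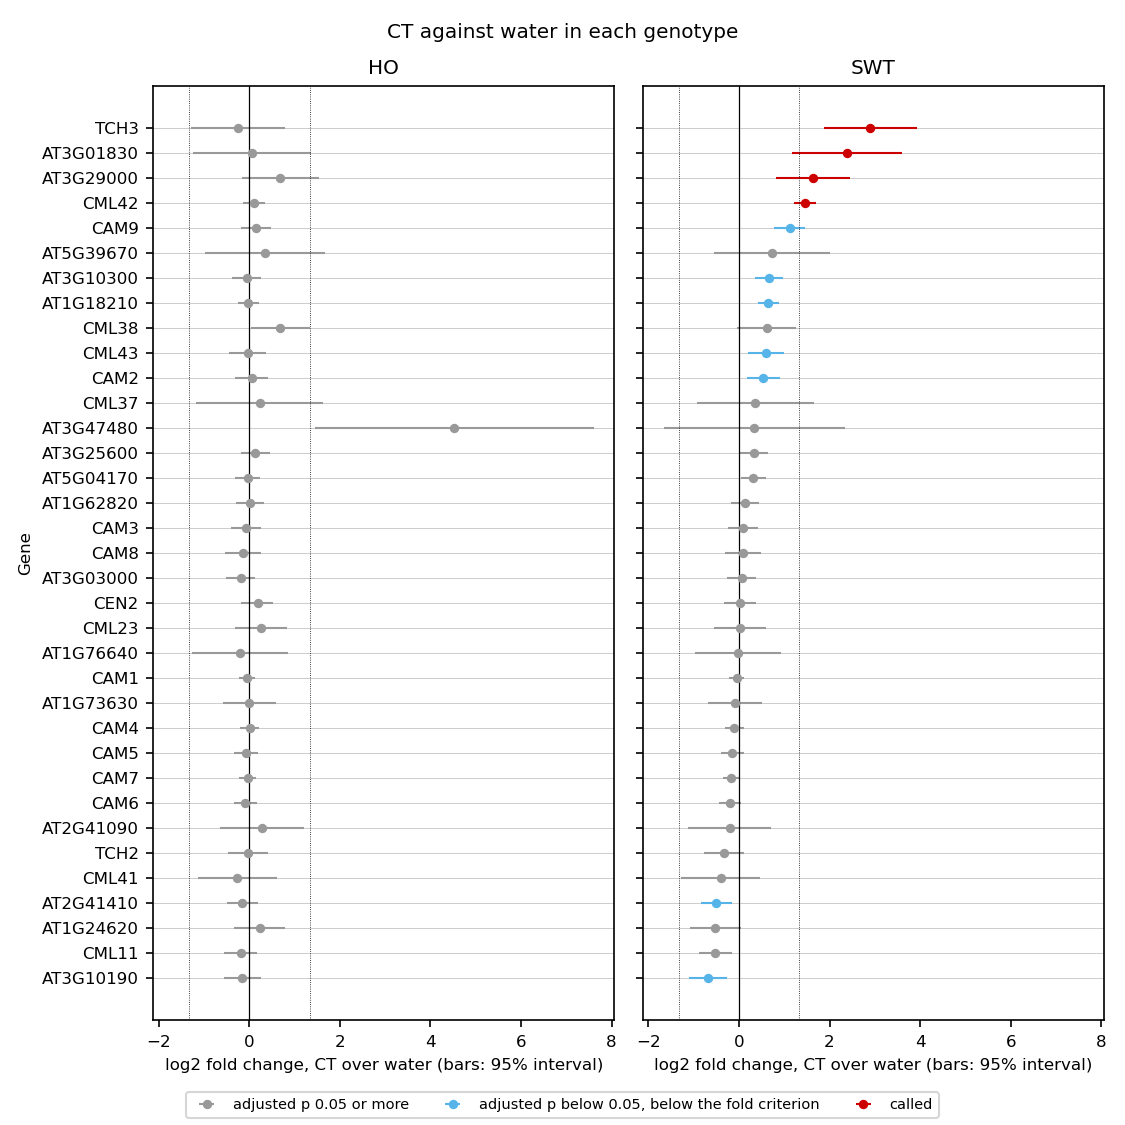
Log2 fold changes of CT over water with 95% intervals for the 35 genes in HO (left) and SWT (right), ordered by the SWT value. Red points were called, blue points passed the adjusted p below the fold criterion (dotted lines) and grey points did neither. The 4 red points are TCH3, AT3G01830, AT3G29000 and CML42 in SWT, and there are 0 red or blue points in HO.

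The difference between the 2 responses, HO minus SWT, was tested for every gene with a z test, and 5 of the 35 genes passed an adjusted p of 0.05, all with a lower response in HO: TCH3, CML42, CAM9, AT1G18210 and AT3G10300. They are 14.3% of the members, against 3.31% of all genes that were lower and 0.645% that were higher. No member passed in the other direction, where 1 member and 951 of all genes had an unadjusted p below 0.05. The difference was -3.15 (SE 0.74, adjusted p = 0.00121) for TCH3 and -1.36 (SE 0.17, adjusted p = 2.37e-12) for CML42 on the log2 scale. It was -0.97 (SE 0.24, adjusted p = 0.00320) for CAM9, -0.67 (SE 0.17, adjusted p = 0.00360) for AT1G18210 and -0.72 (SE 0.23, adjusted p = 0.0389) for AT3G10300. For AT3G01830 and AT3G29000, which were called in SWT, the differences were -2.33 (SE 0.91, adjusted p = 0.166) and -0.96 (SE 0.60, adjusted p = 0.610), so their responses were not shown to differ between the genotypes.

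In water, AT3G47480 was the 1 member called lower in HO than in SWT (2.86% of the members, against 0.113% of all genes), and 0 members were called higher (against 0.0173% of all genes). At an unadjusted p below 0.05, 3 members were lower in HO, AT3G47480, CML37 and AT1G76640, and 0 were higher, against 791 lower and 297 higher of all genes. AT3G47480, an EF-hand protein gene, averaged 8.26 normalized counts in HO with CT and 0.360 in HO in water, against 35.8 in SWT with CT and 28.3 in SWT in water. Over the 3 libraries that is about 1 count in HO in water and 85 in SWT in water. These counts are rounded from the recovered means and are not observed reads. Their ratio of SWT to HO was 85.0, with a 95% Clopper-Pearson interval of 14.9 to 3396 that covers counting error only. That interval is approximate and not independent of the fit. The fitted log2 fold change of HO over SWT was -6.29 (SE 1.55, adjusted p = 0.0295), a value that depends on how the fit treats so low a count, and the call was lost at an adjusted p of 0.01. With CT the gene had about 25 such rounded counts over the HO libraries, 25.0 times those in water (approximate 95% interval 4.09 to 1026). The fitted response in HO did not pass the test (adjusted p = 1.000). Its implied replicate coefficient of variation was 86.6% in SWT and 133% in HO, the highest in the family. CML37, a gene known in wounding and jasmonate defence, averaged 13.8 normalized counts in HO with CT and 11.7 in HO in water, against 50.7 in SWT with CT and 39.4 in SWT in water. In water its log2 fold change of HO over SWT was -1.74 (SE 0.69), with an adjusted p of 0.753.

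With CT, the difference of HO from SWT was derived from the 3 deposited comparisons, and 4 members were called lower in HO: TCH3, AT3G01830, CML37 and AT3G29000. They are 11.4% of the members, against 2.99% of all genes called lower. No member was called higher, against 0.238% of all genes. In that direction 4 members had an unadjusted p below 0.05, and 2149 of all genes. Without the fold criterion, 10 members were lower and 1 was higher by the adjusted p, against 2080 lower and 988 higher of all genes. The higher member was AT3G10190, at 0.65 on the log2 scale (SE 0.21, adjusted p = 0.0225). The log2 difference was -3.79 (SE 0.52, adjusted p = 2.86e-11) for TCH3, -2.90 (SE 0.63, adjusted p = 0.000101) for AT3G01830 and -1.46 (SE 0.42, adjusted p = 0.00618) for AT3G29000. For CML37 it was -1.88 (SE 0.68, adjusted p = 0.0455), with much the same value as in water. CML42 at -1.30 (SE 0.12, adjusted p = 2.86e-24) and CAM9 at -1.15 (SE 0.17, adjusted p = 9.30e-10) passed the adjusted p but did not reach the fold criterion. This difference shares its libraries with both responses and adds no independent evidence to them.

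**Figure D5:**
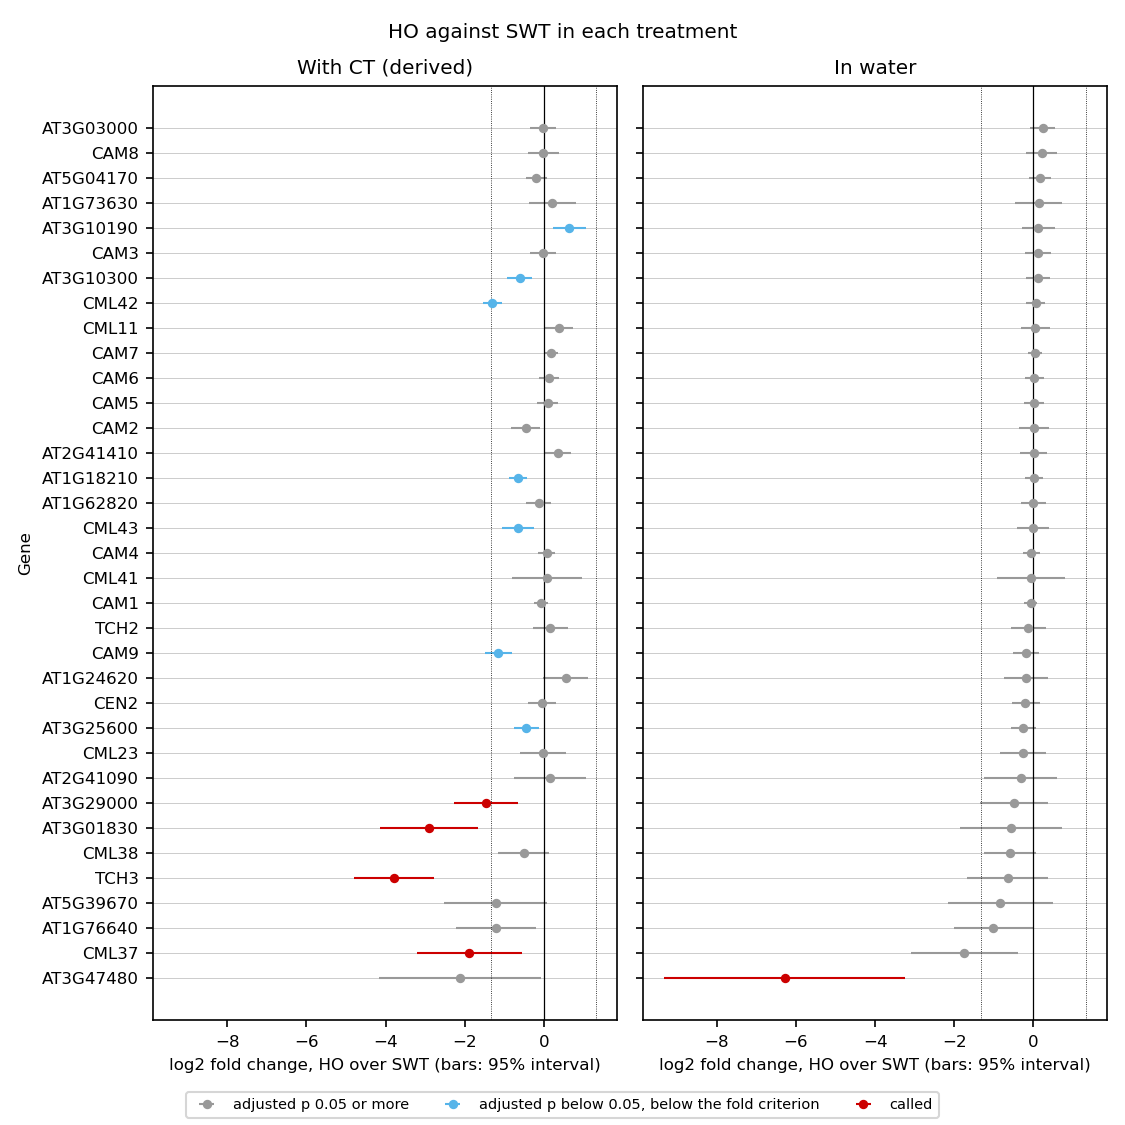
Log2 fold changes of HO over SWT with 95% intervals for the 35 genes with CT (left, derived) and in water (right), ordered by the value in water, with the colours of the plot of CT responses. AT3G47480 is the 1 red point in water at -6.29, and TCH3, AT3G01830, CML37 and AT3G29000 are the red points with CT.

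TCH3 lies in a tandem of 3 members on chromosome 2, all on the plus strand: AT2G41090 (17135347 to 17136999), TCH3 (17137037 to 17139700) and CAM2 (17140183 to 17141431), with gaps of 37 and 482 bases between them. AT2G41090 averaged 26.7 normalized counts in HO with CT and 22.0 in HO in water, against 23.9 in SWT with CT and 27.5 in SWT in water, and these means lay close together. Its log2 fold change in SWT was -0.20 (SE 0.47, 95% interval -1.12 to 0.71), against 2.90 for TCH3 and 0.54 for CAM2. AT2G41090, CAM2 and TCH2 also overlap genes on the other strand (AT2G09220 for AT2G41090, AT2G09225 and AT2G41120 for CAM2, AT5G37760 for TCH2), so their counts carry the same uncertainty as that of TCH3. The neighbours of CAM1 and CAM4 were not called either. TCH2 (AT5G37770), 4846 bases from CAM1, had log2 fold changes of -0.03 (SE 0.23) in HO and -0.33 (SE 0.23) in SWT, and CML23 (AT1G66400), 2719 bases from CAM4, had 0.26 (SE 0.29) and 0.02 (SE 0.29).

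Promoters of 5 members are shown because CAM2 and CAM3 encode the same protein and share a motif pair while CAM2 alone passed the test, and because CML42, AT3G29000 and CAM9 are among the risers whose upstream sequence holds no other annotated gene. Each is the 300 bases before the annotated gene start in RefSeq TAIR10.1, 5′ to 3′ on the strand of the gene. Capitals mark the W-box core TTGAC, bound by WRKY factors, and the CGCG box, bound by the calmodulin-binding CAMTA factors, as ACGCGT or as CCGCGT, which reads ACGCGG on the other strand. Both strands were searched, so the W-box core also shows as GTCAA.
CAM2, chr2:17139883-17140182, plus strand: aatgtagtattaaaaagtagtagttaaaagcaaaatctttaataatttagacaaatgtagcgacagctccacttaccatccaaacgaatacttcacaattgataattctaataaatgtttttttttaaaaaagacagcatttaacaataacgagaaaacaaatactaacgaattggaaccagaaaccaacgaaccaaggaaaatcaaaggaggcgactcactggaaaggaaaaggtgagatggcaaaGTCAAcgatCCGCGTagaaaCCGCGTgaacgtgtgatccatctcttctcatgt
CAM3, chr3:21036167-21036466, minus strand: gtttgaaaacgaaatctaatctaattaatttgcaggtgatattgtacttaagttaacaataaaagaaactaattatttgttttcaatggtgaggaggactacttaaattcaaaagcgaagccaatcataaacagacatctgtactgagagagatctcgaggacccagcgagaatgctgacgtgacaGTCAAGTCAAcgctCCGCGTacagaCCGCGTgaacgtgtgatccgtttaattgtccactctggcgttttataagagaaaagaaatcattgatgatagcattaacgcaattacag
CML42, chr4:11134076-11134375, minus strand: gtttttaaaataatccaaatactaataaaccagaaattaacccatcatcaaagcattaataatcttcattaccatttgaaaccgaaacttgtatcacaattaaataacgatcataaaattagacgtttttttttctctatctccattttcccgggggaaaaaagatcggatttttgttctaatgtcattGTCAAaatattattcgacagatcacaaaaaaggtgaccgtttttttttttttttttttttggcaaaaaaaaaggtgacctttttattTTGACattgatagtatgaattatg
AT3G29000, chr3:11005338-11005637, plus strand: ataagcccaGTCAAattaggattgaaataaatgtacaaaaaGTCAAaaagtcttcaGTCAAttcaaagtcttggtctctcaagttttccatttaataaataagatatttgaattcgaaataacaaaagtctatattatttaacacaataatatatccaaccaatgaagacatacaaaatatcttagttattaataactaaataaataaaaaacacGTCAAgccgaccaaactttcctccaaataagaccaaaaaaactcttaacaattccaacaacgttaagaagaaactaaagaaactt
CAM9, chr3:19269659-19269958, minus strand: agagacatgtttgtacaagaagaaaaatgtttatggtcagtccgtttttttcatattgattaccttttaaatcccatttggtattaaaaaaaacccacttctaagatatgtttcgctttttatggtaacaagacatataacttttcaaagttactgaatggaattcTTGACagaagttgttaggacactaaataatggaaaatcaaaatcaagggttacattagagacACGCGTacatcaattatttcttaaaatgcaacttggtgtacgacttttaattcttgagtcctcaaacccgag
CAM2 and CAM3 both carry CCGCGT 2 times near the start of the gene, and CAM9 carries ACGCGT 1 time. A CGCG box in a searched form, ACGCGT or CCGCGT, was upstream of 5 of the 39 genes (12.8%) and of 3.9% of 27443 genes. The 5 genes are CAM2, CAM3, CAM9, CML23 and TCH2, and other forms of the box were not searched. Of these 5, CAM2 and CAM9 rose with CT in SWT and the other 3 did not pass the test. The W-box core was present upstream of 18 of the 39 (46.2%) and of 50.4% of all genes. It occurs 4 times upstream of AT3G29000 and 2 times upstream of CML42. AT1G18210, AT3G10300 and CML43 also rose by the adjusted p, and their windows, not shown, hold no other annotated gene. Each of those windows carries 0 W-box cores and 0 CGCG boxes. The windows of TCH3, with 0 matches, and of AT3G01830, with 3, also hold other annotated genes, AT2G09220 and AT2G41090 for TCH3 and AT3G01820 for AT3G01830, and are not comparable with them. The G-box CACGTG was upstream of 2 members (5.1%), AT3G50360 and AT1G18210, and of 7.1% of all genes. A match is a string of letters and not a site known to be bound.

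The remaining members were not called in any comparison. The EF-hand genes AT1G62820, AT3G25600, AT3G03000 and the centrin gene AT3G50360 had log2 fold changes in SWT between 0.03 and 0.33, and 0 of the 4 passed the test, with 1 at an unadjusted p below 0.05. CAM8 averaged 220 and 243 normalized counts in HO with CT and in water, against 221 and 209 in SWT with CT and in water. CML41, known for its place at plasmodesmata, averaged 28.9 and 34.9 normalized counts in HO with CT and in water, against 27.4 and 36.3 in SWT with CT and in water. AT1G24620, AT1G73630, AT1G76640, AT5G39670 and AT5G04170 were not called either, and for some of them the intervals allow a sizeable change. AT1G76640 averaged 12.1 normalized counts in HO with CT and 14.1 in HO in water, against 27.9 in SWT with CT and 28.4 in SWT in water, a log2 difference of HO from SWT of -1.20 (SE 0.52, adjusted p = 0.116) with CT and -1.02 (SE 0.51, adjusted p = 1.000) in water. AT5G39670 averaged 22.5 and 17.8 normalized counts in HO with CT and in water, against 52.1 and 31.5 in SWT, and its log2 fold change with CT in SWT was 0.73 (95% interval -0.55 to 2.01).

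Genes that act beside calmodulins were counted in the same way for CT in SWT, where 2.58% of all genes were called higher, and 8.30% were higher and 3.23% lower by the adjusted p alone. An unadjusted p below 0.05, in either direction, was found for 4808 of 23106 genes. Of 12 measured genes among 18 further EF-hand genes outside the 39, 0 passed both criteria, 3 had an unadjusted p below 0.05, and AT4G37010 was lower by the adjusted p alone (-0.65, SE 0.16, adjusted p = 0.000660). Of the 6 CAMTA factors, 0 passed both criteria and 2 rose by the adjusted p alone, and 3 had an unadjusted p below 0.05. Of 8 genes of the calmodulin-binding CBP60 family with SARD1, 3 were higher and 0 lower without the fold criterion. With it, 1 was called, CBP60G, a regulator of salicylic acid synthesis, at 1.89 (SE 0.42, adjusted p = 0.000197). In HO the log2 fold change was 1.52, and the responses were not shown to differ (adjusted p = 0.926). CBP60G was called lower in HO than in SWT, at -2.01 in water (adjusted p = 0.0162) and -2.37 with CT (adjusted p = 1.16e-06). Of 5 IQM genes for calmodulin-binding proteins, 3 were higher and 0 lower without the fold criterion. With it, 1 was called, EDA39 (AT4G33050), which averaged 491 normalized counts in HO with CT and 377 in HO in water, against 3054 in SWT with CT and 601 in SWT in water. The log2 fold change of EDA39 was 0.38 in HO and 2.34 (SE 0.22, adjusted p = 3.82e-24) in SWT, and the difference between them was -1.96 (adjusted p = 8.08e-08). Another IQM gene, AT3G52870, rose by 1.00 in SWT by the adjusted p alone (SE 0.18, adjusted p = 6.23e-07), against -0.04 in HO, and its responses differed by -1.05 (adjusted p = 0.00175).

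Of 17 measured cyclic nucleotide-gated channel genes, whose channels carry Ca2+ and are bound by calmodulin, 2 were called in SWT, beside 2.58% of all genes. Without the fold criterion, 4 of the channel genes were higher and 1 was lower. CNGC10 had a log2 fold change of 0.21 in HO and 1.99 in SWT (SE 0.27, adjusted p = 6.12e-12), and CNGC13 had 0.03 in HO and 1.63 in SWT (SE 0.28, adjusted p = 2.03e-07). The responses of these 2 genes and of CNGC3 differed between the genotypes, by -1.78, -1.60 and -0.86 on the log2 scale for CNGC10, CNGC13 and CNGC3 (adjusted p = 0.000195, 0.00335 and 0.0290). Of 9 measured calcineurin B-like genes, which encode Ca2+ sensors that act through protein kinases, 4 were higher and 0 lower without the fold criterion. With it, 1 was called, CBL7, at 1.87 (SE 0.66, adjusted p = 0.0428) on means of 9.31 and 3.39 normalized counts in HO with CT and in water and 33.2 and 9.09 in SWT with CT and in water. CBL7 had a log2 fold change of 1.46 (SE 0.79) in HO, and its responses were not shown to differ (-0.41, adjusted p = 0.953). CBL1 rose by 0.97 in SWT by the adjusted p alone (adjusted p = 1.48e-06), against 0.01 in HO, and its responses differed by -0.96 (adjusted p = 0.00569). Median log2 fold changes in SWT were 0.04 for the further EF-hand genes, 0.25 for the CAMTA factors, 0.38 for the CBP60 family, 0.79 for the IQM genes, 0.06 for the channels and 0.31 for the calcineurin B-like genes, beside -0.01 for all genes.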

How the data were processed

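Poly-A RNA-seq of 12 root libraries was grouped by the genotype and treatment in the labels, with 3 libraries in each of 4 groups. Per the labels, the authors aligned reads to TAIR10 with STAR 2.7.10a, counted them with featureCounts 2.0.1 and fitted them with DESeq2 1.34.0. The deposited signal is the mean normalized count over all libraries, the deposited log2 values are fold changes and their SEs, the deposited score is the Wald statistic, and the authors gave p-values and adjusted p-values. These columns of the authors' own comparisons are the only measurements used, since no values per library were at hand. Replicates are separate libraries of 16 seedlings, and the sources do not say whether they are separate experiments, so p-values measure the spread between these libraries.

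With Python 3.11.15, numpy 2.4.6, pandas 2.3.3, scipy 1.17.1, Biopython 1.88 and matplotlib 3.10.9, group means were recovered from the mean and the fold changes. The sign of each table was tested over all 8 combinations of signs, and the deposited signs gave the closest match of the dispersions implied by the tables. The difference between responses, HO minus SWT, used a z test on the summed variances, and HO against SWT with CT was added up from the 3 deposited comparisons (the difference in water plus that between the responses, with its variance from their SEs), both two-sided with Benjamini-Hochberg adjustment over 23103 genes. Calls needed an adjusted p below 0.05 and, except for the difference between responses, a change of at least 2.51-fold. These steps were run on simulated estimates that share 1 dispersion per gene over the groups, as the derived comparison assumes. That run checks the arithmetic and cannot show that the assumption holds for the authors' fit. Replicate variation was worked out from the SEs and holds for the fit, which shares 1 dispersion per gene over the groups.

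All 39 members were matched to TAIR10.1 by locus tag, which gave positions, exon lengths, coding sequences and promoters. A loop is a stretch of 12 residues with aspartate first, aspartate, asparagine or serine at the next 2 odd places and glutamate last. Genes are given in full when called in any of 5 comparisons, when they are CAM1 to CAM7 or CML42, or when they neighbour such a gene. Genes of the other lists are named, at most 6 a list, only where they passed in SWT or for the difference between responses, and others that passed by the adjusted p alone stand in the counts. A few further members were named after their values were seen. The members and lists were chosen with earlier results of these data known. Alternatives were the fold criterion, a stricter adjusted p, a test against the fold criterion itself, adjustment over every gene, a mean count of at least 50, scaling of the statistics by their spread, and centring on the median gene.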

Additional observations from a re-analysis of the deposited data

Results flagged for a closer look

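The responses to CT of HO and SWT differed by the z test of the difference for 5 members. The difference, HO response minus SWT response on the log2 scale, was -3.15 for TCH3, -1.36 for CML42, -0.97 for CAM9, -0.72 for AT3G10300 and -0.67 for AT1G18210. Each of the 5 responded less in HO.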

How the results depend on the processing

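No paired analysis was possible because the tables hold no values per library, and leaving out each replicate in turn was not run for the same reason. For CT against water in SWT, 4 members were called. The count was 11 with no fold criterion, 2 (TCH3 and CML42) with the Wald statistics divided by their spread over all genes, and 0 when the test was made against the fold criterion itself, where TCH3 had the smallest adjusted p of the 4 at 0.190. For HO against SWT in water, the call of AT3G47480 was lost at an adjusted p below 0.01, in the test against the fold criterion, and with a mean count of at least 50, which leaves this gene out, so the count was 0 in each. For the difference between responses, 5 members were called, 4 at an adjusted p below 0.01 and 4 with the statistics divided by their spread (AT3G10300 lost its call in both, with an adjusted p of 0.131 under the spread), 2 (TCH3 and CML42) with the fold criterion added, and 0 in the test against it. For HO against SWT with CT, 4 members were called, 11 with no fold criterion, 2 with a mean count of at least 50, 1 (TCH3) with the statistics divided by their spread and 1 (TCH3) in the test against the fold criterion. The count for CT against water in HO was 0 under all 7 alternatives. Among the gene by gene values, 480 kept their side of the threshold, 25 lost the call and 8 gained it. The 480 include values not called under any setting, among them each value for CT in HO. Only centring alters the log2 values, so their direction was not tested. The median of all genes lay within 0.011 of 0 on the log2 scale in each comparison, so centring moved no count. The statistics had a spread over all genes of 1.45 in SWT and 0.772 in HO. Low counts limit the 7 members with a mean below 50, AT3G01830, AT3G47480 and CML37 among them.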
